A study of Mus musculus with 6 samples.

Results

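The genes described here are 42 protein-coding members of the families that oxidise, reduce, hydrolyse or conjugate foreign and endogenous small molecules in mouse kidney. They were taken by name (Cyp plus a number, Ugt, Gst, Sult, Aldh, Akr, Ces and Fmo), with at least 10 counts in at least 3 of 6 libraries. The annotation holds 231 such genes and 89 of them could be read from the deposited counts. Of these 89, 43 stayed under the count minimum and 4 were left out by name, namely Gsta2 and the adrenal genes Cyp11a1, Cyp11b2 and Cyp21a1. The 42 members are 10 cytochromes P450, 11 glutathione transferases, 7 aldehyde dehydrogenases, 6 aldo-keto reductases, 4 UDP-glycosyltransferases, 2 carboxylesterases and 2 sulphotransferases, out of 9519 genes read in all. No flavin monooxygenase reached the minimum. Fmo6 was the only gene of that family that could be read, with 2 counts over all libraries, so the family was hardly seen here.

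The libraries are RNA of kidney of C57BL/6 mice, an inbred strain, at postnatal day 21, 3 labelled healthy and 3 labelled acute renal failure (ARF), a rapid loss of kidney function. The titles call these groups control and treat. The labels name no gene, agent or procedure behind the renal failure. Nothing says that each library is another animal; the p-values then rest on a spread between libraries that may be technical. The comparison asks which transcripts differ between kidneys carrying the 2 diagnoses.

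Detoxification proceeds in steps. Cytochromes P450, aldehyde dehydrogenases, aldo-keto reductases and carboxylesterases expose or make a reactive group, and the transferases then attach glutathione, a sugar or sulphate, which makes the product easier to excrete. Many of these enzymes also handle the body's own steroids, eicosanoids, retinoids and aldehydes. In kidney most of them are known best from the proximal tubule, which takes up and secretes organic anions and cations.

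Total counts ran from 2873370 to 6191479 per library, with the lowest in healthy-labelled replicate 2. Genes had to be named by position, because rows of the deposited files often held reads of a gene other than the one they name. The counted rows lie on 1.53% to 100% of a member's exon bases, with a median of 14.6%, and 8 of 42 members lay in a row that carried their own symbol. Levels of different genes are therefore not comparable, whereas the same bases are compared between libraries. Levels are counts scaled to library size with TMM factors (normalised CPM), and fold changes are log2, ARF-labelled minus healthy-labelled.

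The libraries went against their labels in 4 injury genes, and some stood apart. All 4 tubular injury genes looked at, Krt8, Krt20, Clu and Gdf15, separated the 6 libraries with the lower values under the label of renal failure. These 4 genes were picked singly and stand in none of the marker lists used here. Whether the labels were exchanged was not tested, and an exchange would turn every direction given below. The keratin gene Krt20 lay between 150.2 and 183 normalised CPM in the healthy-labelled and between 8.27 and 15.1 in the ARF-labelled libraries. The 11 proximal tubule markers read summed to between 17909 and 27321 normalised CPM in the healthy-labelled and to between 7284 and 8053 in the ARF-labelled libraries, with 8 called lower and 1 higher, and none at 0. The 9 markers of collecting duct and distal tubule were all called higher, with sums of 4739 to 6512 against 14501 to 19408. In bulk tissue, fewer cells of a type and less RNA per cell cannot be told apart. Adrenal markers summed to 709, 1918 and 3.23 normalised CPM in healthy-labelled replicates 1 to 3 and to 106, 0.868 and 2394 in ARF-labelled replicates 1 to 3. Adrenal RNA was thus present in some libraries of both groups. Of 15 hepatocyte markers 4 could be read; their sums stayed between 0.587 and 5.09 normalised CPM in all libraries, and Cps1 was at 0.

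**Figure D1:**
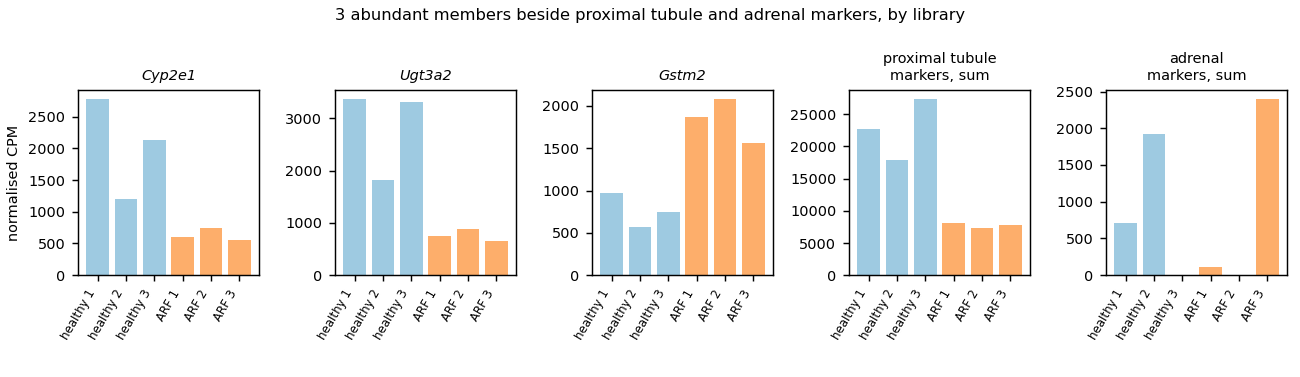
Bars give normalised CPM (vertical axes from 0) in each of the 6 libraries for the members Cyp2e1, Ugt3a2 and Gstm2 and for the summed markers of proximal tubule and of adrenal gland. Cyp2e1, Ugt3a2 and the proximal tubule sum are lower in all 3 ARF-labelled libraries, Gstm2 is higher, and the adrenal sum is high in libraries of both groups.

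With ARF-labelled set against healthy-labelled, 10 of the 42 members were higher and 14 lower. A call means an adjusted p under 0.05 in edgeR's quasi-likelihood test, adjusted by Benjamini and Hochberg's method over 5246 genes. The 24 calls are 57.1% of the members, against 50.0% of all genes tested, so the share called is near the background. Higher calls made up 23.8% of the members and 25.1% of all genes tested. Lower calls made up 33.3% of the members and 24.9% of all genes tested. The members' median log2 fold change was -0.10, beside 0.01 over all genes tested. At least 2-fold differences among the calls numbered 7 higher (11.4% of all genes tested were so called) and 11 lower (13.5%). The groups did not overlap in 26 members (61.9%), against 60.2% of all genes tested. With libraries scaled by total count the members split into 13 higher and 12 lower, a setting in which the median of all genes moved to 0.19. With the library richest in adrenal counts left out of each group, a setting chosen after seeing the data, 7 members were higher and 16 lower. Cyp4f18, Cyp4f15 and Akr1c18 had fewer than 10 counts in every library of 1 group and entered the list through the other group alone, so that they had to differ. Cyp39a1, Cyp2c23 and Cyp3a13 reached 10 counts in only 1 library of the group where they are low. They too passed the minimum through the group where they are high, so their calls are no support either. By family, all 3 calls among UDP-glycosyltransferases were lower, 3 of 4 calls among glutathione transferases were higher, and the P450 had 3 higher and 4 lower. Differences between families were not tested.

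**Figure D2:**
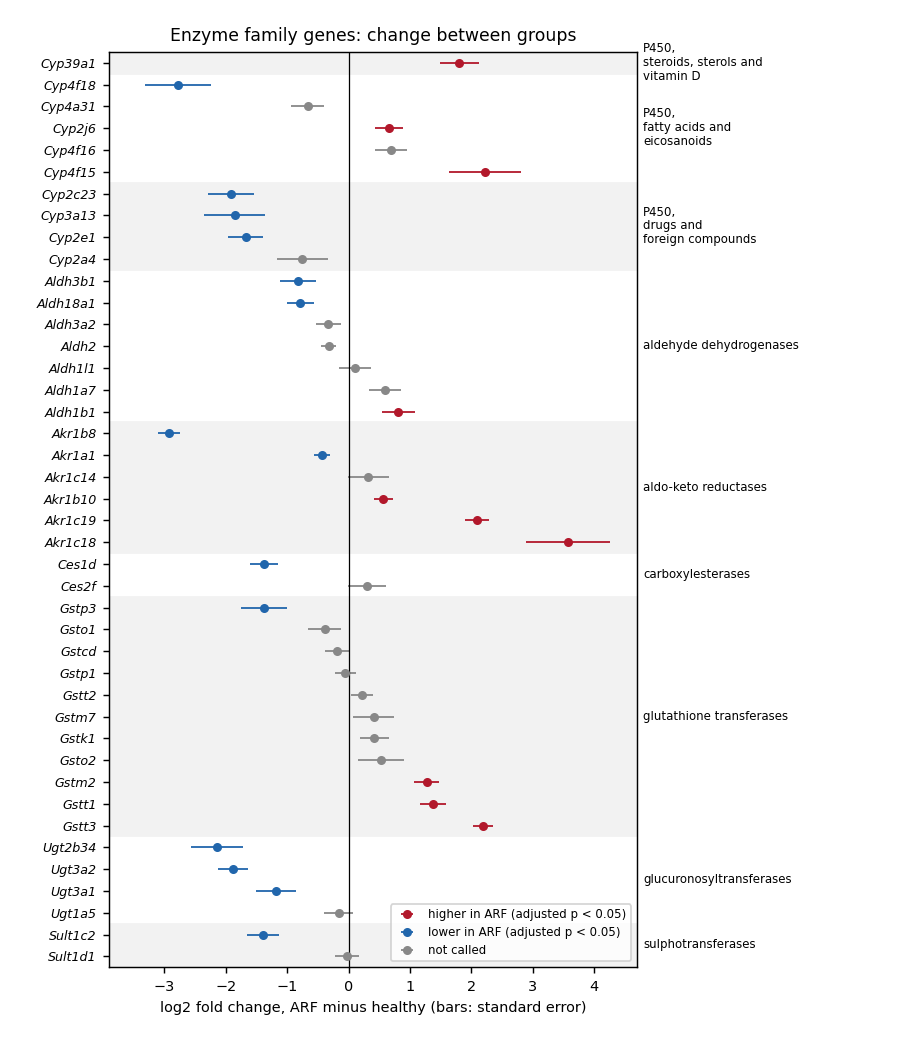
Log2 fold change (ARF-labelled minus healthy-labelled, horizontal axis) of each of the 42 members, grouped by family, with its standard error as a bar; red marks members called higher, blue lower and grey not called. The range runs from -2.92 for Akr1b8 to 3.58 for Akr1c18, and 5 of the 7 families (P450, aldehyde dehydrogenases, aldo-keto reductases, carboxylesterases and glutathione transferases) hold members on both sides of 0.

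Sequences of 6 promoters, 250 bases before to 50 bases after the start site, are shown. Among them are nearby genes of which the first was called lower and the second higher (Akr1b8 and Akr1b10) or not called (Gstp3 and Gstp1). Akr1c19 and Cyp3a13 are shown as called members that hold one of the motifs searched. Aldh18a1, Cyp2j6 and Cyp4f18, also called and with such a motif, are not printed. Of the 42 members 35 matched an entry of the RefSeq promoter table (GRCm38.p6). Capitals mark the xenobiotic response element core GCGTG, the antioxidant response element core TGACNNNGC or the AP-1 motif TGANTCA on either strand. The printed promoters are those of Akr1b8 (chr6:34353896-34354195, plus strand), Akr1b10 (chr6:34383997-34384296, plus), Gstp1 (chr19:4037863-4038162, minus), Gstp3 (chr19:4059398-4059697, minus), Akr1c19 (chr13:4233490-4233789, plus) and Cyp3a13 (chr5:137921570-137921869, minus), each written 5′ to 3′ on the strand of the gene.
Akr1b8: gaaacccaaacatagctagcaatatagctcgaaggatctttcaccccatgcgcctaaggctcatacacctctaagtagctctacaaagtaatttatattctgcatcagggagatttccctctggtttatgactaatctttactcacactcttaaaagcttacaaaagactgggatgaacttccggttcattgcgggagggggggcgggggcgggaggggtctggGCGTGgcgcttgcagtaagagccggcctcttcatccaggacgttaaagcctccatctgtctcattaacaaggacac
Akr1b10: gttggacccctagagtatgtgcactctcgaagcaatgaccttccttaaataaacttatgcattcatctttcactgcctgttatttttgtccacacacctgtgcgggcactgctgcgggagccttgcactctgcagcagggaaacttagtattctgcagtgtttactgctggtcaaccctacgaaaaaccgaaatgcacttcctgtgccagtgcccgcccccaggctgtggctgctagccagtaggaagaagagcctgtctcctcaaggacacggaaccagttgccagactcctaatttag
Gstp1: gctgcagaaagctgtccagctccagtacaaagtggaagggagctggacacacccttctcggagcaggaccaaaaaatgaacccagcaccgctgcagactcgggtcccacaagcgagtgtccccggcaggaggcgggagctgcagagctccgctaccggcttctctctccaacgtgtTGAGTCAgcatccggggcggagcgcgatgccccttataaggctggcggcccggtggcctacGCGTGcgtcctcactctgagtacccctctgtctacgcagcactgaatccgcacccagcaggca
Gstp3: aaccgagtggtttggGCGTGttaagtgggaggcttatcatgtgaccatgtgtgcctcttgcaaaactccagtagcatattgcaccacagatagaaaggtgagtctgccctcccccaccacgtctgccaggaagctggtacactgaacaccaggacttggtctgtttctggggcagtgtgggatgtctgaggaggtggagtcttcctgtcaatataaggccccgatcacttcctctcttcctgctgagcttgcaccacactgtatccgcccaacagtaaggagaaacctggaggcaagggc
Akr1c19: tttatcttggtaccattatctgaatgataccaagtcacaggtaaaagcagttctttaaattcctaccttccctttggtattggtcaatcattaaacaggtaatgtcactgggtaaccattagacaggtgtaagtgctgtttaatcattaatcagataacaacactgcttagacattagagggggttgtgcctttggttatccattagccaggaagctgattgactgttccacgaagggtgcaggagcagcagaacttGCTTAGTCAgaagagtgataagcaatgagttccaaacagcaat
Cyp3a13: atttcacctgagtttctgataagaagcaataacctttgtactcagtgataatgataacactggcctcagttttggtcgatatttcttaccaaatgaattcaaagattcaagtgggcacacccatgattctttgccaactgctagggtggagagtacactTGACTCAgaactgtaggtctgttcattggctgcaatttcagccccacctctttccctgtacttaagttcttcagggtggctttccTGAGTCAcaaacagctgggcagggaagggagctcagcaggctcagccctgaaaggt

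GCGTG was found in 10 of the 35 matched members (28.6%), beside 35.2% of the 27025 genes of the table. It stood in 0 of 9 matched members called higher, in 3 of 11 called lower and in 7 of 15 not called. TGACNNNGC was found in Akr1c19, Cyp2j6, Cyp4f18 and Gstm7 (11.4% of members, 14.0% of genes), and TGANTCA in Cyp3a13, Cyp4f16 and Gstp1 (8.57% of members, 8.97% of genes). The HNF1 motif and the HNF4 motif CAAAGTCCA were in none of the matched promoters of members; 0.0111% and 0.555% of the genes hold them. The 3 shares found are close to those of all promoters, and a missing match says only that these letters are not in this window.

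Of the 4 P450 in the Cyp2 and Cyp3 families other than Cyp2j, known mainly for foreign compounds, 3 were lower and 1 was not called; Cyp2c23 among them also acts on arachidonic acid. Cyp2e1, which oxidises ethanol, acetone and paracetamol, is on chromosome 7 (140763739 to 140774987, GRCm38) and was read through 649 coding bases out of 1839 exon bases, under the row name Hras. It stood at 2773, 1195 and 2128 normalised CPM in healthy-labelled replicates 1, 2 and 3, and at 599.7, 745 and 562 in ARF-labelled replicates 1, 2 and 3, the order kept for all values below. Every ARF-labelled library lay under every healthy-labelled one (adjusted p = 0.00145, log2 fold change -1.68, SE 0.28). Cyp2e1 is also abundant in liver, and the 4 hepatocyte markers read, of 15 listed, were at or near 0 in all 6 libraries.

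Cyp2c23, a P450 that makes epoxides of arachidonic acid, was read at a low level, with 6.22, 5.45 and 5.28 normalised CPM in the healthy-labelled and 2.23, 1.39 and 0.902 in the ARF-labelled libraries (adjusted p = 0.00322, log2 fold change -1.91, SE 0.38). Cyp3a13, a drug-oxidising P450, had 4.901, 5.09 and 7.92 against 1.54, 0.521 and 2.70 normalised CPM (adjusted p = 0.0143, log2 fold change -1.86, SE 0.50). Counts were 33, 15 and 18 against 13, 8 and 6 for Cyp2c23, and 26, 14 and 27 against 9, 3 and 18 for Cyp3a13. Both passed the count minimum through the healthy-labelled group, where they are high, so their directions are no support for a pattern. The groups did not overlap in either gene, but the call of Cyp3a13 ended without healthy-labelled replicate 3 (adjusted p = 0.0581). Leaving out ARF-labelled replicate 3 moved its log2 fold change to -2.48. Cyp2a4, a testosterone hydroxylase, had 442, 115 and 273 against 124, 167 and 203 normalised CPM and was not called (log2 fold change -0.75, adjusted p = 0.158). Healthy-labelled replicate 2 was its lowest library, and without that library the log2 fold change was -1.14 (adjusted p = 0.00733). Leaving out other single libraries moved it as far as -0.25, with adjusted p up to 0.590. Of the 30-base windows in the counted bases of Cyp2a4, 57.7% also occur in transcripts of other genes, chiefly Cyp2a5, so its value is uncertain.

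Of the 5 P450 in the Cyp4 and Cyp2j families, which act on fatty acids and eicosanoids, 2 were higher, 1 was lower and 2 were not called. Cyp4f18 and Cyp4f15 passed the count minimum only through the group in which they are high, so their directions are no support for any pattern. Cyp4f18, which inactivates leukotriene B4 and is known from neutrophils, had 12, 13 and 18 counts in the healthy-labelled and 3, 5 and 2 in the ARF-labelled libraries (adjusted p = 0.00303, log2 fold change -2.79, SE 0.54). The 5 leukocyte markers read moved with it: all 5 were called lower, none was at 0, and their sums were 87.7 to 223 normalised CPM in the healthy-labelled and 24.04 to 27.1 in the ARF-labelled libraries. Their part in the fall of Cyp4f18 was not tested. Cyp4f15, of the same subfamily, had 4, 0 and 3 counts against 20, 13 and 20 (adjusted p = 0.0127, log2 fold change 2.22, SE 0.58). Both 4f genes rest on few reads.

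Cyp2j6, another epoxygenase, had 58.1, 34.9 and 30.8 normalised CPM in the healthy-labelled and 56.7, 70.1 and 70.2 in the ARF-labelled libraries (adjusted p = 0.0433, log2 fold change 0.65, SE 0.23). Its groups overlapped, through healthy-labelled replicate 1. The call was lost without healthy-labelled replicate 2 (adjusted p = 0.127), healthy-labelled replicate 3 (0.159), ARF-labelled replicate 2 (0.104) or ARF-labelled replicate 3 (0.0966), and without healthy-labelled replicate 1 the log2 fold change was 0.99. Cyp4f16 had 7.92, 7.64 and 4.99 against 10.3, 13.5 and 9.62 normalised CPM without overlap, yet was not called (log2 fold change 0.69, adjusted p = 0.0573). Cyp4a31, a fatty acid omega-hydroxylase of the 4a cluster, had 60.1, 25.5 and 50.2 against 28.3, 31.9 and 26.7 (log2 fold change -0.66, adjusted p = 0.0701). Here too healthy-labelled replicate 2 was the lowest library, and without it the log2 fold change was -0.95 (adjusted p = 0.00183). Leaving out other single libraries moved the value as far as -0.41, with adjusted p up to 0.233. Of the windows counted for Cyp4a31, 33.0% also occur in other transcripts, such as Cyp4a10 and Cyp4a32.

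Cyp39a1, which hydroxylates oxysterols, was the only sterol P450 among the members. Cyp7a1 was read too, with 0 counts in every library. Cyp39a1 had 4.15, 1.82 and 2.35 normalised CPM in the healthy-labelled and 11.1, 10.6 and 9.17 in the ARF-labelled libraries, with no overlap (adjusted p = 0.00201, log2 fold change 1.81, SE 0.32). Its counts were 22, 5 and 8 against 65, 61 and 61. It thus passed the count minimum through the ARF-labelled group, where it is high, and its call is no support. The 485 counted bases of Cyp39a1, on chromosome 17 between 43667425 and 43751431, lie outside its coding sequence.

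Of the 6 aldo-keto reductases, 3 were higher, 2 lower and 1 not called. Akr1b8, which reduces aldehydes and retinal, lies on chromosome 6 (34354119 to 34368463) and fell from 218, 189 and 155 normalised CPM in the healthy-labelled to 25.7, 19.6 and 28.6 in the ARF-labelled libraries (adjusted p = 1.21e-05, log2 fold change -2.92, SE 0.18). Its neighbour Akr1b10 (34384218 to 34396950) had 17.2, 18.5 and 15.6 against 22.3, 26.0 and 27.5 (adjusted p = 0.0145, log2 fold change 0.57, SE 0.15). The row named Akr1b10 holds the reads of Akr1b8, and the row named Akr1b7 holds those of Akr1b10. The call of Akr1b10 was lost without healthy-labelled replicate 3 (adjusted p = 0.0624) or ARF-labelled replicate 3 (0.0549), whereas Akr1b8 passed in all 14 alternatives run. Of the windows counted for Akr1b8, 25.2% also occur in another transcript. The log2 ratio of Akr1b10 to Akr1b8 was -3.59, -3.28 and -3.24 in the healthy-labelled and -0.20, 0.39 and -0.05 in the ARF-labelled libraries.

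The cluster of steroid-handling aldo-keto reductases on chromosome 13 had higher members. Akr1c18, the 20-alpha-hydroxysteroid dehydrogenase that inactivates progesterone, had 0, 1 and 3 counts in the healthy-labelled and 29, 31 and 22 in the ARF-labelled libraries (adjusted p = 0.00285, log2 fold change 3.58, SE 0.68). Without healthy-labelled replicate 1 the value was 2.75, and without healthy-labelled replicate 3 it was 4.895. This gene passed the count minimum through the ARF-labelled group alone, so its call is no support. Akr1c19 had 12.8, 13.5 and 7.63 against 48.9, 49.7 and 46.9 normalised CPM (adjusted p = 7.71e-05, log2 fold change 2.09, SE 0.20). The lowest ARF-labelled library lay well above the highest healthy-labelled one. Akr1c14, a 3-alpha-hydroxysteroid dehydrogenase of the same cluster, had 62.2, 24.7 and 41.1 against 75.9, 43.9 and 42.5 and was not called (log2 fold change 0.32, adjusted p = 0.459). Adrenal tissue also makes and breaks down steroids. Beside the adrenal sums given above, Akr1c18 stood at 0, 0.364 and 0.880 normalised CPM in the healthy-labelled and at 4.97, 5.38 and 3.31 in the ARF-labelled libraries, and the part of adrenal RNA in it was not tested.

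Akr1a1, an aldehyde reductase that also serves ascorbate synthesis, was modestly lower, with 236, 181 and 232 against 150.3, 164 and 166 normalised CPM (adjusted p = 0.0195, log2 fold change -0.44, SE 0.13). Its call was lost without healthy-labelled replicate 3 (adjusted p = 0.0587), ARF-labelled replicate 1 (0.0734) or ARF-labelled replicate 2 (0.0512). Scaled by total count it was -0.26 (adjusted p = 0.0970).

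**Figure D3:**
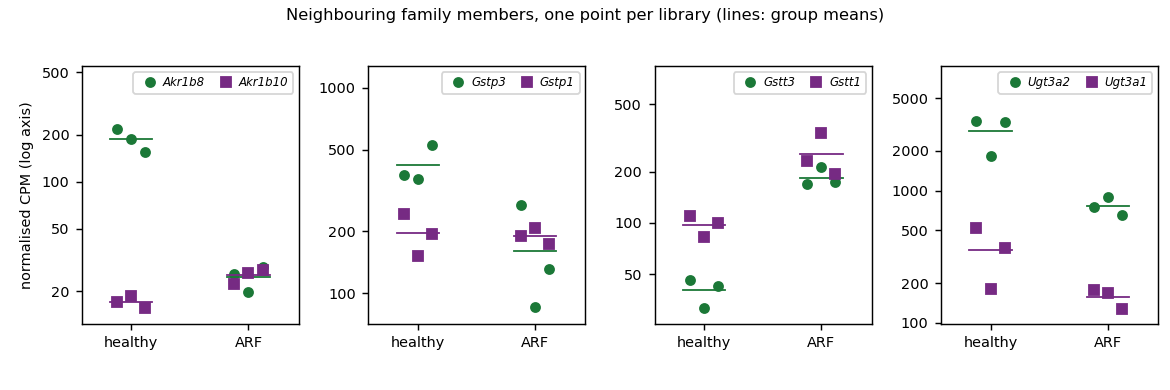
Normalised CPM (log axis) of 4 pairs of neighbouring family members in each library, with group means as lines. Akr1b8 falls while Akr1b10 rises, Gstp3 falls while Gstp1 is not called, Gstt3 and Gstt1 both rise, and Ugt3a2 and Ugt3a1 both fall.

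Glutathione transferases attach glutathione to reactive compounds. In this family 3 members were higher, 1 lower and 7 not called. Gstt3 and Gstt1, of the theta class, are neighbours on chromosome 10 (75774115 to 75781414 and 75783813 to 75798584). Gstt3 had 46.4, 31.6 and 42.5 normalised CPM in the healthy-labelled and 169, 213 and 173 in the ARF-labelled libraries (adjusted p = 2.92e-05, log2 fold change 2.19, SE 0.16), and Gstt1 had 110.3, 82.5 and 101 against 231, 337 and 193 (adjusted p = 0.000916, log2 fold change 1.37, SE 0.21). In both genes every ARF-labelled library lay above every healthy-labelled one. Another gene of the cluster, Gstt2, had 52.8, 32.7 and 50.2 against 48.3, 53.8 and 57.3 and was not called (log2 fold change 0.22, adjusted p = 0.338). Of the windows counted for Gstt2, 48.4% also occur in other transcripts, whereas no window of Gstt1 or Gstt3 does.

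Gstm2, of the mu class (chromosome 3, 107981702 to 107986453), had 966, 568 and 747 normalised CPM in the healthy-labelled and 1868, 2078 and 1563 in the ARF-labelled libraries (adjusted p = 0.00115, log2 fold change 1.27, SE 0.20). It was read in the row named Ampd2, and 15.7% of its windows occur in other transcripts as well. Gstm7, of the same class, had 9.24, 9.45 and 5.87 against 7.20, 9.55 and 15.8 and was not called (log2 fold change 0.41, adjusted p = 0.347). In the pi class, 1 member was lower and 1 not called. Gstp3 had 376, 359 and 527 in the healthy-labelled and 268, 85.8 and 131 in the ARF-labelled libraries (adjusted p = 0.0144, log2 fold change -1.38, SE 0.37), with ARF-labelled replicate 1 well above the other ARF-labelled libraries. That call was lost without healthy-labelled replicate 3 (adjusted p = 0.0566). Gstp1, near it on chromosome 19, had 242, 152 and 195 against 189, 207 and 173 (log2 fold change -0.05, adjusted p = 0.830), and 45.7% of its windows are shared, mostly with Gstp2.

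Among the other glutathione transferases, Gsto1, of the omega class, had 136, 81.1 and 75.7 against 97.9, 71.2 and 56.4 normalised CPM (log2 fold change -0.39, adjusted p = 0.252), and Gstk1, of the mitochondrial kappa class, had 18.9, 11.999 and 15.6 against 17.5, 26.7 and 18.9 (log2 fold change 0.42, adjusted p = 0.160). Gsto2 (0.53, adjusted p = 0.274) and Gstcd (-0.19, adjusted p = 0.443), a protein with a transferase-like domain, were not called either. All 4 overlapped between the groups.

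Ratios of neighbouring genes, meaning family members near each other on a chromosome, were set side by side for 8 pairs, which were chosen with the values known. For Gstp1 to Gstp3 the log2 ratio was -0.63, -1.24 and -1.43 in the healthy-labelled and -0.50, 1.26 and 0.41 in the ARF-labelled libraries. That of Gstt1 to Gstt3 was 1.23, 1.36 and 1.22 against 0.46, 0.66 and 0.16. The groups overlapped in Gsto2 to Gsto1 and in Gstm2 to Gstm7 (exact permutation p = 0.3 each). They did not overlap in the other 6 pairs, which include Akr1b10 to Akr1b8 and Ugt3a2 to Ugt3a1; each of these had a two-sided exact permutation p of 0.1, the smallest that 3 libraries against 3 allow (0.133 adjusted over the 8 pairs). No ratio could therefore pass a threshold of 0.05.

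UDP-glycosyltransferases attach a sugar, and 3 of the 4 members were lower. Ugt3a2 and Ugt3a1, of a subfamily that uses sugars other than glucuronic acid, lie on chromosome 15 (9335550 to 9370955 and 9276888 to 9315032), in rows that carry their own names. Ugt3a2 had 3366, 1826 and 3308 normalised CPM in the healthy-labelled and 751, 889 and 657 in the ARF-labelled libraries (adjusted p = 0.000352, log2 fold change -1.89, SE 0.24). Ugt3a1 had 519, 182 and 369 against 176, 167 and 128 (adjusted p = 0.0156, log2 fold change -1.19, SE 0.33), and its call was lost without ARF-labelled replicate 3 (adjusted p = 0.0517). In both genes healthy-labelled replicate 2 lay below the other healthy-labelled libraries, in Ugt3a1 close to the ARF-labelled ones. Of their windows, 26.7% in Ugt3a2 and 29.0% in Ugt3a1 are shared, mainly with each other. Ugt2b34, a glucuronosyltransferase, had 10.9, 28.4 and 34.9 against 7.20, 4.17 and 5.11 (adjusted p = 0.00353, log2 fold change -2.14, SE 0.43), here with healthy-labelled replicate 1 the lowest of its group. Ugt1a5, read through 752 bases of the Ugt1a locus, had 8.29, 8.73 and 12.3 against 8.91, 9.20 and 8.11 and was not called (log2 fold change -0.16, adjusted p = 0.611).

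Of the 7 aldehyde dehydrogenases, 1 was higher, 2 were lower and 4 were not called, and no called member passed 2-fold. Aldh18a1, which makes a precursor of proline, had 21.3, 26.2 and 18.8 normalised CPM in the healthy-labelled and 9.43, 13.9 and 14.9 in the ARF-labelled libraries (adjusted p = 0.0176, log2 fold change -0.78, SE 0.22; 0.0521 without ARF-labelled replicate 1). Aldh1b1, a mitochondrial enzyme and the one member whose exons were read whole, had 51, 22 and 19 counts against 70, 68 and 115, without overlap once scaled (adjusted p = 0.0359, log2 fold change 0.81, SE 0.27). Its call was lost without healthy-labelled replicate 2 (adjusted p = 0.0735), healthy-labelled replicate 3 (0.131) or ARF-labelled replicate 3 (0.118). Aldh3b1, which oxidises lipid aldehydes, had 4.15, 4.73 and 5.57 against 2.74, 2.43 and 2.86 (adjusted p = 0.0424, log2 fold change -0.83, SE 0.29). That call was lost in 5 of the 6 fits that left out 1 library, with adjusted p from 0.0785 without healthy-labelled replicate 2 to 0.128 without healthy-labelled replicate 3, and stood without healthy-labelled replicate 1.

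Aldh2, the mitochondrial enzyme that clears acetaldehyde, had 565, 464 and 596 normalised CPM in the healthy-labelled and 428, 420.1 and 450.4 in the ARF-labelled libraries. The groups did not overlap, but the difference was small and not called (log2 fold change -0.32, adjusted p = 0.0586). Without healthy-labelled replicate 2 it was -0.44 (adjusted p = 0.0167). Leaving out other single libraries moved it as far as -0.28, with adjusted p up to 0.152. Aldh3a2, which oxidises fatty aldehydes, had 229.6, 129 and 188 against 146, 167 and 122.6 (log2 fold change -0.33, adjusted p = 0.212), and -0.55 without healthy-labelled replicate 2 (adjusted p = 0.0277). The cytosolic Aldh1a7 (0.60, adjusted p = 0.0850) and the folate enzyme Aldh1l1 (0.10, adjusted p = 0.774) were not called.

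Of the carboxylesterases, which cleave esters and amides, Ces1d was lower, with 257, 175 and 266 normalised CPM in the healthy-labelled and 121, 68.9 and 80.2 in the ARF-labelled libraries (adjusted p = 0.00152, log2 fold change -1.38, SE 0.23). Ces2f had 4.71, 4.36 and 6.75 against 8.40, 5.21 and 5.86 and was not called (log2 fold change 0.30, adjusted p = 0.450). Of the sulphotransferases, Sult1c2 had 15.5, 11.6 and 19.1 against 7.37, 5.03 and 5.26 (adjusted p = 0.00280, log2 fold change -1.39, SE 0.26). Sult1d1, which sulphates catecholamines, had 161, 93.8 and 143 against 109, 136 and 149 (log2 fold change -0.02, adjusted p = 0.935) and was read through only 37 bases.

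**Figure D4:**
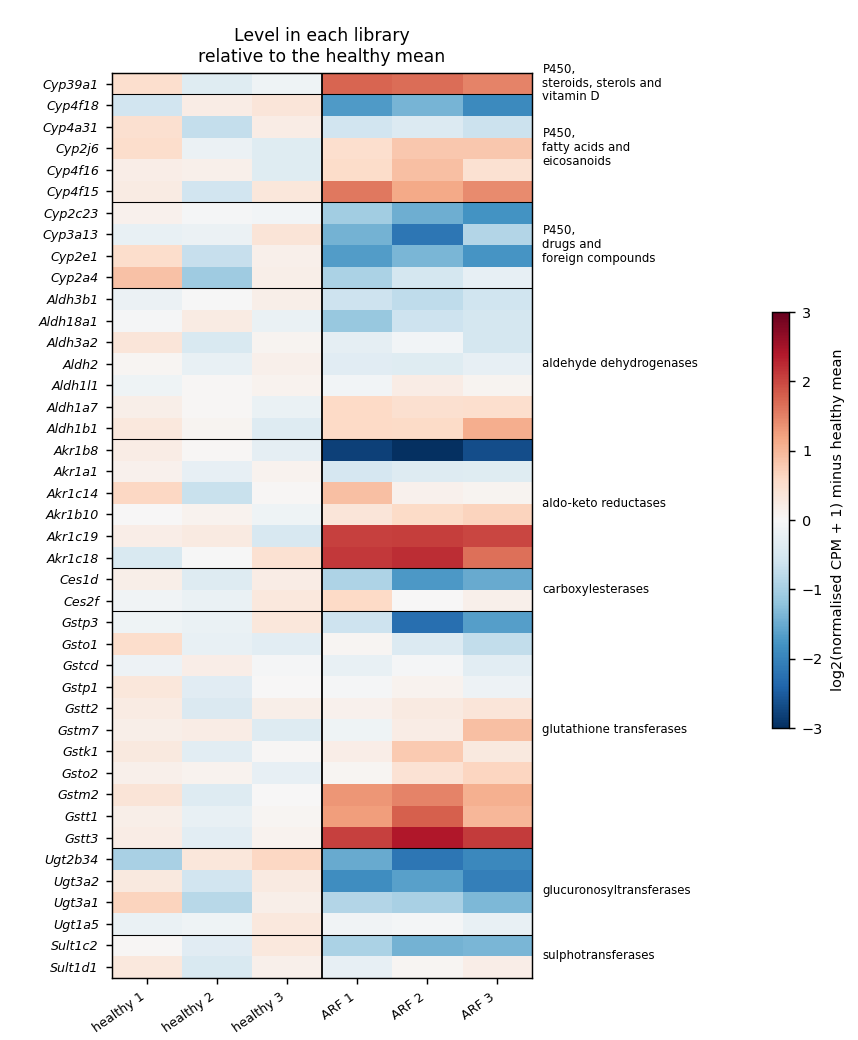
Each row is a member and each column a library; colour gives log2(normalised CPM + 1) minus the mean of the healthy-labelled libraries, from -3 (blue) to 3 (red). Healthy-labelled replicate 2 is blue in many members, as in Cyp2a4 and Ugt3a1, and the 3 ARF-labelled libraries share a sign in all of the darkest rows, such as Akr1b8 and Gstt3.

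The members varied within the groups as well. Healthy-labelled replicate 2 was the lowest of its group in 22 of the 42 members, and healthy-labelled replicate 1 the highest in 24. The same replicate 2 had the lowest total count, the lowest proximal tubule sum (17909 normalised CPM), the highest adrenal sum of its group (1918) and the highest fibroblast sum (1677, against 226 to 543 in the other healthy-labelled libraries). The part of these in the members' levels was not tested. The coefficient of variation was larger in the healthy-labelled group in 28 of the 42 members, with a median of 24.3% against 17.4% in the ARF-labelled group. Members called lower had the proximal tubule sum moving with them, and members called higher the sum of collecting duct and distal tubule; the part of either in the result was not tested.

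The other genes of these pathways, from 148 names in 5 lists, could be read in 62 cases, of which 56 were tested, 11 were higher and 19 lower, with a median log2 fold change of -0.19. These calls are 53.6% of the pathway genes tested, near the 50.0% of all genes tested, and each list below is small. Among 22 transporters tested, 4 were higher and 9 lower. The organic anion transporter Slc22a8 (-2.38, adjusted p = 7.84e-05), the prostaglandin transporter Slco2a1 (-2.22, adjusted p = 0.000222) and the efflux pump Abcg2 (-1.83, adjusted p = 0.000280) were lower, and Slco4a1 (1.91, adjusted p = 2.04e-05), Abcc5 (0.87, adjusted p = 0.000533) and Slc22a19 (2.96, adjusted p = 0.00341) higher. Uptake and efflux of organic ions thus had calls in both directions.

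Among 6 genes of glutathione synthesis and use tested, none was higher and 3 were lower: glutathione reductase Gsr (-0.95, adjusted p = 0.000804), thioredoxin Txn1 (-0.63, adjusted p = 0.0104) and Gclc (-0.42, adjusted p = 0.0138), the catalytic subunit that makes the precursor of glutathione. These stood beside the higher Gstt1, Gstt3 and Gstm2. Of 14 other enzymes of both phases tested, 3 were higher and 4 lower. The epoxide hydrolase Ephx1, whose substrates come from P450 reactions, had 239.8, 133 and 130.3 normalised CPM in the healthy-labelled and 747, 670.0 and 556 in the ARF-labelled libraries (1.97, adjusted p = 0.000327), and the lactonase gene Pon3 was also higher (1.14, adjusted p = 0.000211). The glycine acyltransferase Glyat (-1.46, adjusted p = 0.000290) was lower. Xanthine dehydrogenase, Xdh, was lower too (-0.82, adjusted p = 0.0163), and Pon2 passed narrowly (higher, adjusted p = 0.0491). Ephx2, which opens epoxides of fatty acids and was picked after its values were seen, was lower (-0.75, adjusted p = 0.0191), the reverse of Ephx1.

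Of 4 genes for electron partners and cofactor supply tested, Cyb5b was higher (0.59, adjusted p = 0.00386) and Ugp2, which makes UDP-glucose for the glycosyltransferases, lower (-1.01, adjusted p = 0.00101). Of 10 nuclear receptors and regulators tested, 3 were higher and 2 lower. They include the retinoid X receptor Rxrb (0.79, adjusted p = 0.000631) and the receptor Ppard (-0.92, adjusted p = 0.00155). Hnf4a, a regulator of many liver-type genes in the proximal tubule that was likewise picked after its values were seen, had 897, 690.1 and 1093 against 684, 458 and 715 normalised CPM and was not called (-0.53, adjusted p = 0.0696).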

How the data were processed

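Per the labels' protocols, Trizol was used to extract kidney RNA for the 6 libraries, and 1 microgram of it went into an Illumina TruSeq preparation. The authors deposited raw read counts made with featureCounts 2.0.1, summed over exons by gene name, in pairs and without strand, per the file headers. Bowtie 0.12.2 and mm9 appear in the submitters' processing notes, but the aligner and build of the counts themselves were not given in the sources used here. Row intervals appear to belong to another assembly than the reads, so rows were assigned to GRCm38 genes (GENCODE M21) by position: a row went to a gene that held at least 90% of the overlapped exon bases and at least 25 bases. This placed 12401 rows with 63.0% of counts in 9519 genes. Each gene is thus seen through part of its exons.

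Library totals over all rows, from 2873370 to 6191479, entered TMM scaling. Genes that passed filterByExpr were tested with edgeR 4.0.16 (quasi-likelihood, group only, all 6 libraries, R 4.3.3), with Benjamini-Hochberg adjustment at 0.05. The script was run on simulated data in which far fewer genes changed than were called here. That run therefore does not vouch for the scaling or the share called in these data. Promoter sequences are RefSeq's. Ratios of neighbours used log2(normalised CPM + 1).

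Within each family, the 4 members with the lowest adjusted p and the 2 most abundant uncalled ones get values per library, as does any other singled out; up to 3 pathway genes per list and direction are named, apart from 1 that is not reported here. The members and lists were chosen with earlier results of these data known. Marker lists for endothelium (3 of 3 tested lower), adipocytes (1 of 2 lower), fibroblasts (1 higher and 1 lower of 5), erythroid cells (2 of 2 lower), urothelium (1 of 2 higher) and adrenal gland (0 of 4 called) were also run. In a list of sex markers, the 4 genes tested, all on the Y chromosome, split into 2 higher and 2 lower. Each had counts in all 6 libraries. Their log2 fold changes were 0.98 for Kdm5d, 0.38 for Uty, -1.16 for Ddx3y and -1.04 for Eif2s3y, and the reason for the split was not tested. Alternatives were other scalings, DESeq2 1.42.0, filters, reading rules, a replicate block and leaving out libraries.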

Additional observations from a re-analysis of the deposited data

How the results depend on the processing

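Of the 24 called members, 15 passed in every alternative run, 9 lost the call in at least 1, 7 uncalled members gained one, and 0 called members changed direction. The 15 include Cyp4f18, Cyp4f15 and Akr1c18, which entered the list through 1 group alone, so that their passing is no support. The same holds for Cyp39a1 and Cyp2c23, which passed the count minimum through the group where they are high. The sign of 4 uncalled members turned: scaling by total count gave 0.0173 for Ugt1a5, 0.13 for Gstp1 and 0.15 for Sult1d1, no filter 0.0208 and the replicate block 0.000595 for Sult1d1, and leaving out the adrenal-rich libraries -0.0207 for Gstt2. Leaving out 1 library moved Ugt1a5 between -0.29 and 0.0131, Gstp1 between -0.22 and 0.12 and Sult1d1 between -0.24 and 0.13. Members called higher ranged from 7 to 10 and lower from 10 to 17 when 1 library was left out; pathway genes ranged from 8 to 13 higher and from 17 to 23 lower. Scaling by total count gave 19 pathway genes higher instead of 11, and raised the share of higher calls among called members from 41.7% to 52.0%. Requiring 2-fold left 5 pathway genes higher and 11 lower. DESeq2's Wald test called 10 members higher and 15 lower, and no filter on low counts 10 and 13. With the adrenal-rich libraries left out, chosen after seeing the data, Cyp2j6, Aldh1b1, Aldh3b1 and Akr1b10 lost their calls.

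Deviations of same-numbered libraries from their group means had r = -0.07, -0.22 and -0.29 across genes for numbers 1, 2 and 3. With group means of 3 libraries, these values cannot decide whether the numbers pair the libraries. No label says that they do. A replicate block gave 8 members higher and 13 lower, and 11 and 20 pathway genes. Cyp4f15 and Akr1c18, with under 10 counts in each healthy-labelled library, and Cyp4f18, with under 10 in each ARF-labelled one, are limited by depth.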

Other observations

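Of the 43 family genes read but under the count minimum, 16 had no count in any library and 0 were tested. The others rest on few reads. Sult2a3 had 40 counts over the healthy-labelled and 9 over the ARF-labelled libraries, Cyp4a12b 37 and 9, and Gsta1, an alpha-class glutathione transferase, 26 and 10. Ces2h had 17 in each group. Fmod, which the name prefix takes although it encodes the matrix protein fibromodulin, had 3 and 16. These sums have no test and were not scaled for library size.

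The 3 adrenal genes left out by name show how unevenly adrenal RNA entered the libraries. Cyp21a1, the steroid 21-hydroxylase of the adrenal cortex, had 2176, 3051 and 11 counts in healthy-labelled replicates 1, 2 and 3 and 433, 5 and 10955 in ARF-labelled replicates 1, 2 and 3. Cyp11a1, which starts steroid synthesis from cholesterol, had 1195, 1644 and 0 against 140, 0 and 3836.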
